A study of Mus musculus with 10 samples.

Results

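MHC class I antigen presentation was followed through 10 genes: the heavy chains H2-K1 and H2-D1, their partner B2m, the peptide transporter genes Tap1 and Tap2, the loading factor Tapbp, the immunoproteasome subunits Psmb8, Psmb9 and Psmb10, and the coactivator Nlrc5. The members are the rows of the count table whose gene identifiers map to these symbols, and all 10 were found among its 51467 genes. Messenger RNA was measured by QuantSeq, which reads the 3′ end of polyadenylated transcripts, in 10 libraries of mouse embryonic stem cells (ESCs) grown without a differentiation step in serum with LIF and 2i, a pair of kinase inhibitors that holds cells in the naive state. There were 3 libraries of wild-type (WT) cells. DGCR8 KO cells lack the RNA-binding partner of Drosha, without which canonical microRNAs (miRNAs) are not made, and gave 3 libraries. DDX6 KO cells lack an RNA helicase of the miRNA silencing complex and of P-bodies, and gave 4 libraries, 2 from each of 2 CRISPR clones (clone 1 and clone 2). The labels name no interferon treatment. The DGCR8 KO cells are a single line, so the genotype and the line cannot be told apart, and both knockouts are set against the same WT libraries.

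Cells display peptides of their own proteins on class I molecules, each a heavy chain bound to beta-2 microglobulin. The peptides are cut by the proteasome, whose immune form carries the subunits encoded by Psmb8, Psmb9 and Psmb10, are pumped into the endoplasmic reticulum by TAP and are fitted to the heavy chain with the help of tapasin. Interferon raises the whole pathway through transcription factors that include the interferon regulatory factors (IRFs), and NLRC5 assembles with RFX, CREB and NF-Y proteins on the promoters. Naive ESCs are known for very low class I levels.

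The libraries held 2131156 to 4745083 gene counts, and 3 counts, taken as the floor, correspond to 0.669 to 1.44 CPM (gene counts relative to a common library total). The targeted genes followed the labels. In DGCR8 KO cells Dgcr8 was at 20.6% of the WT mean, and in DDX6 KO cells Ddx6 was at 16.2%. The 10 naive ESC markers summed to between 4160 and 4960 CPM in every library, and none was at or below 3 counts throughout a genotype. The sum does not show changes of single markers. Tested as the members below, 1 was higher and 4 lower in DGCR8 KO cells, against 19.9% and 16.5% of all genes tested. In DDX6 KO cells 1 was higher and 2 lower, against 17.9% and 16.6%. Of 10 haematopoietic markers, 7 to 9 stayed at or below 3 counts in each genotype, among them Ptprc, the leukocyte common antigen. Their sum was 146 to 181 CPM in WT, 227 to 282 in DGCR8 KO and 180 to 238 in DDX6 KO cells, nearly all of it Laptm5, a lysosomal membrane gene. The fibroblast sum was 6.91 to 9.60 CPM in WT, 6.11 to 8.27 in DGCR8 KO and 15.1 to 19.4 in DDX6 KO cells, with Dcn, Lum, Postn and Twist2 at or below 3 counts in all genotypes. Among its leading genes, Fbn1 was at 0.48 to 1.36 CPM in WT, 0.815 to 2.76 in DGCR8 KO and 5.56 to 8.42 in DDX6 KO cells. Pdgfrb stood above Fbn1 in WT, at 2.01 to 4.8 CPM. Its DGCR8 KO libraries spanned 1.84 to 2.44 CPM, its DDX6 KO libraries 1.47 to 4.17. Col1a1 rose with Fbn1: WT libraries spanned 1.34 to 2.39 CPM, those lacking DDX6 2.81 to 6.96, without overlap. The DGCR8 KO libraries lay lower, at 0.407 to 0.679 CPM. Col1a2 and Thy1 were at or below 3 counts throughout WT, but not throughout either knockout. Of 3 fibroblast genes tested, 1 was higher in DDX6 KO cells and none lower. The primitive endoderm sum, mostly Sparc, was 672 to 745 CPM in WT, 599 to 692 in DGCR8 KO and 771 to 888 in DDX6 KO cells, with 2 or 3 of 10 markers at or below 3 counts in each genotype, and 3 of its 4 tested genes were lower in DGCR8 KO cells. The trophoblast sum, mostly Tfap2c, was 116 to 154 CPM in WT, 184 to 220 in DGCR8 KO and 90.5 to 133 in DDX6 KO cells, with Elf5, Hand1 and Plac1 at or below 3 counts in all genotypes. The part of these markers in the results was not tested. In such bulk samples, fewer cells that express a gene and less of its RNA per cell cannot be told apart.

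Counts of the members were low. Of the 10, 7 had at least 3 CPM in at least 3 libraries and were tested, and Tap1, Psmb9 and Nlrc5 did not. A gene passed at an adjusted p-value under 0.05 in limma (Benjamini-Hochberg over the 11683 genes tested, two-sided). In DGCR8 KO cells 5 of 7 tested members passed, all higher than WT, against 36.3% of all genes tested in either direction, 19.9% higher and 16.5% lower. In DDX6 KO cells 5 of 7 passed, again all higher, against 34.5% of all genes in either direction, 17.9% higher and 16.6% lower. The median log2 fold change of the tested members was 1.04 in the DGCR8 KO and 1.10 in the DDX6 KO cells, where all genes tested had medians of 0.00 and 0.02. With the added demand of a log2 fold change beyond 1, the study's own rule, 4 members passed in DGCR8 KO cells (14.7% of all genes) and 3 in DDX6 KO cells (11.2%). B2m, Tapbp and Psmb10 passed in both knockouts, H2-K1 and H2-D1 in DDX6 KO cells, and Tap2 and Psmb8 in DGCR8 KO cells. Psmb8 entered the test only through the DGCR8 KO libraries and Tap2 through 3 libraries in which it was high, so the counts of tested members are not counts of the pathway.

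**Figure D1:**
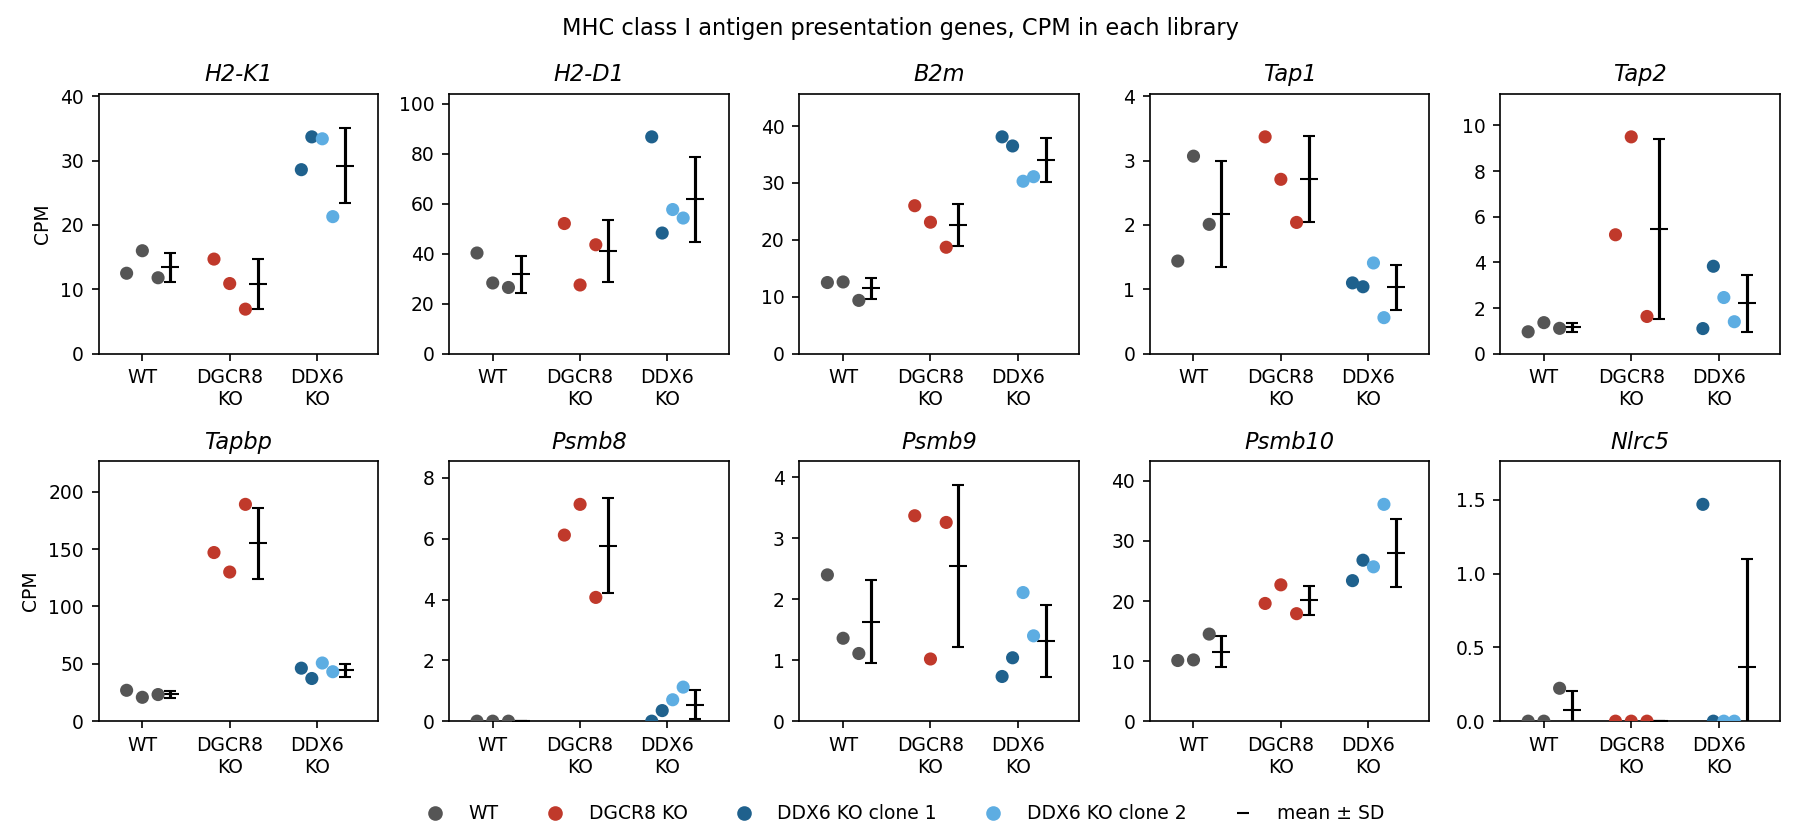
Each panel shows the CPM (linear axis from 0) of 1 member in the 10 libraries, as points coloured by genotype and clone, with the mean and SD of each genotype beside them. H2-K1 and B2m stood highest in the DDX6 KO libraries, Tapbp and Psmb8 in the DGCR8 KO libraries, and Nlrc5 was at or near 0.

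The mRNAs of the class I molecule itself rose in DDX6 KO cells. B2m encodes the invariant light chain (chromosome 2, 122147686 to 122153083, GRCm38). It was at 12.5, 12.6 and 9.36 CPM in WT libraries, 26.0, 23.1 and 18.7 in DGCR8 KO libraries, 38.1 and 36.5 for clone 1, and 30.3 and 31.1 for clone 2. The 3 genotypes did not overlap, and the order WT, DGCR8 KO, DDX6 KO held for every library. B2m rose 2.05-fold in DGCR8 KO cells (log2 fold change 1.04, SE 0.23, limma adjusted p = 0.00159) and 3.03-fold in DDX6 KO cells (1.60, SE 0.21, limma adjusted p = 1.60e-05).

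H2-K1, the classical heavy chain K (chromosome 17, 33996017 to 34000333), was at 12.5, 16 and 11.8 CPM in WT libraries, 14.7, 10.9 and 6.92 in DGCR8 KO libraries, 28.6 and 33.7 for clone 1, and 33.4 and 21.3 for clone 2. All DDX6 KO libraries stood above all others, while WT and DGCR8 KO overlapped. It rose 2.14-fold in DDX6 KO cells (log2 fold change 1.10, SE 0.24, limma adjusted p = 0.00167), and in DGCR8 KO cells the log2 change stood at -0.30 (SE 0.30, limma adjusted p = 0.471). H2-D1, the classical heavy chain D (chromosome 17, 35262730 to 35267499), was at 40.3, 28.3 and 26.5 CPM in WT libraries, 52.1, 27.5 and 43.6 in DGCR8 KO libraries, 86.8 and 48.3 for clone 1, and 57.7 and 54.3 for clone 2. The DDX6 KO libraries lay above WT, and the DGCR8 KO range overlapped both. H2-D1 rose 1.99-fold in DDX6 KO cells (log2 fold change 0.99, SE 0.23, limma adjusted p = 0.00248), and in DGCR8 KO cells it stood at 0.40 (SE 0.25, limma adjusted p = 0.229). Without DGCR8 KO replicate 2, the lowest of its group, that value was 0.68 and passed (limma adjusted p = 0.0302).

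The heavy chain genes are close relatives, so reads can be hard to assign. Of the 351 stretches of 50 bases in the last 400 bases of the main transcript, H2-K1 shared 2 with another gene's transcripts and H2-D1 shared 43 (12.3%), with H2-K1 and with genes outside the family. The other 8 members shared none. Only uniquely aligned reads were counted, so reads lying wholly in shared stretches were not counted.

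The promoters of these 3 genes are shown because each holds the same 4 motifs. The CRE and Y-box pair is laid out alike in all of them, while the NF-kB motif lies upstream of the IRF core in H2-K1 and H2-D1 and downstream of it in B2m, where the IRF core is on the other strand. Each sequence runs from 250 bases before to 50 bases after a RefSeq start site (GRCm38.p6), and capitals mark, wherever they matched, the IRF core AANNGAAA, the NF-kB motif, and the CRE core TGACG with the Y box ATTGG at a fixed distance. The first lies at chr17:34000284-34000583 on the minus strand, the second at chr17:35262844-35263143 on the plus strand and the third at chr2:122147437-122147736 on the plus strand.
H2-K1: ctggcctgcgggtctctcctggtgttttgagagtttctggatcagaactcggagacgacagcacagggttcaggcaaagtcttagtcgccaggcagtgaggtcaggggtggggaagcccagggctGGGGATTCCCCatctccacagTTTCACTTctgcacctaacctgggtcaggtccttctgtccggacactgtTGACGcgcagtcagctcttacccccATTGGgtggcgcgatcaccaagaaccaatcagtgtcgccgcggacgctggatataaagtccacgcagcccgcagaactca
H2-D1: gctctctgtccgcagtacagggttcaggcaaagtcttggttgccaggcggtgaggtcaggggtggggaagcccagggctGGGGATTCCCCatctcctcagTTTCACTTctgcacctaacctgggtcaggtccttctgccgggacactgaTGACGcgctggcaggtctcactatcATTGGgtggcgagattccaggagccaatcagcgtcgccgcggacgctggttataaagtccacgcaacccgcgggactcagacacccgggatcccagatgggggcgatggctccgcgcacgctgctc
B2m: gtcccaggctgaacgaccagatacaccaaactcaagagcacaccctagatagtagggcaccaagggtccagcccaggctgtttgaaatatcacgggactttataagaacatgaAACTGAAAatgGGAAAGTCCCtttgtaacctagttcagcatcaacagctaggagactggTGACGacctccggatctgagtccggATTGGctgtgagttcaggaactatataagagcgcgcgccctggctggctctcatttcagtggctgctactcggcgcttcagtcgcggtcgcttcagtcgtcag

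In all 3, TGACG, the core bound by CREB and ATF proteins, is followed by ATTGG, the NF-Y box, with 25 bases between their first positions. They start at -55 and -30 in H2-K1, -101 and -76 in H2-D1 and -78 and -53 in B2m, counted from the RefSeq start of the window shown. H2-K1 has a second RefSeq window, chr17:34000298-34000597, from whose start the same pair lies at -41 and -16. Over both strands, 31 of 32851 RefSeq promoter windows of this length (0.0944%) held the pair at that distance, which was chosen after the H2-K1 window had been seen. The IRF core occurred in 23.92% of the windows, the NF-kB motif in 4.51% and both together in 0.855%. Of the 8 members with a window (none was given for Tap2 or Nlrc5), H2-K1, H2-D1 and B2m held both, and the other 5 (Tap1, Tapbp, Psmb8, Psmb9 and Psmb10) held neither. The NF-kB matches of H2-K1 and H2-D1 overlap one another and read on both strands. A match is a description of letters, not of a bound site.

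Outside the members, 17 tested genes had the spaced pair in a promoter window. Of these, 4 were higher and 4 lower in DGCR8 KO cells, where 19.9% of all genes tested were higher and 16.5% lower. In DDX6 KO cells 3 were higher and 3 lower, beside 17.9% and 16.6% of all genes tested. These counts lay near the shares over all genes. H2-M3, a nonclassical class I gene named here after its values were seen, was among those higher in both knockouts, with log2 fold changes of 2.66 (limma adjusted p = 0.0285) in DGCR8 KO and 2.81 (limma adjusted p = 0.0177) in DDX6 KO cells.

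Of the members that load peptides, tapasin changed most. Tapbp encodes tapasin, which bridges TAP and the empty class I molecule (chromosome 17, 33919332 to 33929288). It was at 26.9, 20.8 and 23.2 CPM in WT libraries, 147, 130 and 189 in DGCR8 KO libraries, 46.2 and 37.2 for clone 1, and 50.7 and 43.1 for clone 2. The genotypes did not overlap, and the order was WT, DDX6 KO, DGCR8 KO. Tapbp rose 6.54-fold in DGCR8 KO cells (log2 fold change 2.71, SE 0.18, limma adjusted p = 4.60e-09) and 1.89-fold in DDX6 KO cells (0.92, SE 0.19, limma adjusted p = 0.00119).

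The transporter genes were measured with few reads. Tap2 (chromosome 17, 34203527 to 34216321) had 2, 4 and 5 counts in WT libraries, 17, 28 and 4 in DGCR8 KO libraries, 3 and 11 for clone 1, and 7 and 5 for clone 2. In CPM these were 1.15 ± 0.203 (SD, n = 3), 5.45 ± 3.94 (SD, n = 3) and 2.20 ± 1.23 (SD, n = 4). DGCR8 KO replicate 3 stood just above WT, apart from the other two. Tap2 rose in DGCR8 KO cells (log2 fold change 1.88, SE 0.67, limma adjusted p = 0.0341), a call that was lost when any 1 WT library was left out, and in DDX6 KO cells its value was 0.69 (SE 0.70, limma adjusted p = 0.473). Without DGCR8 KO replicate 1, DGCR8 KO replicate 2 or clone 1 replicate 2 it came under the limit for testing. Tap1 (chromosome 17, 34187553 to 34197225) had 3, 9 and 9 counts in WT libraries, 11, 8 and 5 in DGCR8 KO libraries, 3 and 3 for clone 1, and 4 and 2 for clone 2. Its means were 2.17 ± 0.826 CPM in WT (SD, n = 3), 2.71 ± 0.666 in DGCR8 KO (SD, n = 3) and 1.03 ± 0.350 in DDX6 KO cells (SD, n = 4), and it was not tested. The DDX6 KO libraries lay below the WT libraries, but the nearest of them were at 1.41 and 1.44 CPM, from 4 and 3 counts, and no direction is read from it.

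Among the immunoproteasome subunits, Psmb8 was detected mainly in DGCR8 KO cells and Psmb10 rose in both knockouts. Psmb8 replaces the chymotrypsin-like subunit of the standard particle (chromosome 17, 34197790 to 34201454). It had 0 counts in all WT libraries, 20, 21 and 10 in DGCR8 KO libraries, 0 and 1 for clone 1, and 2 and 4 for clone 2. The DGCR8 KO mean was 5.77 ± 1.56 CPM (SD, n = 3), at least 4.01-fold higher than WT when each WT library is set at the highest floor of its group, 1.44 CPM. Its limma adjusted p was 1.85e-05 in the DGCR8 KO and 0.104 in the DDX6 KO cells. Without clone 1 replicate 1, or with clone 2 alone, the DDX6 KO value passed too, on at most 4 counts a library. Leaving out any 1 DGCR8 KO library took Psmb8 under the limit for testing.

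Psmb10, the immune counterpart of the trypsin-like subunit (chromosome 8, 105935739 to 105938444), was at 10.1, 10.2 and 14.5 CPM in WT libraries, 19.6, 22.7 and 17.9 in DGCR8 KO libraries, 23.4 and 26.8 for clone 1, and 25.7 and 36.1 for clone 2. The genotypes did not overlap, and the order was WT, DGCR8 KO, DDX6 KO. It rose 1.67-fold in DGCR8 KO cells (log2 fold change 0.74, SE 0.25, limma adjusted p = 0.0235) and 2.33-fold in DDX6 KO cells (1.22, SE 0.22, limma adjusted p = 0.00042). The first call was lost without WT replicate 1, WT replicate 2 or DGCR8 KO replicate 2, and when the limit on low counts was lifted (0.72, limma adjusted p = 0.0605). Chromosome 8 as a whole was shifted in the DGCR8 KO line: the median over its 644 tested genes was -0.45 against WT, where all genes stood at 0.00. Set against that median, Psmb10 was 1.20 higher in DGCR8 KO cells on the log2 scale, beside 1.25 in DDX6 KO cells set against their chromosome 8 median of -0.03. Chromosome 17, with 7 of the members, had medians of 0.00 and -0.02.

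Psmb9, the immune counterpart of the caspase-like subunit (chromosome 17, 34181988 to 34187764), overlaps the start of Tap1 on the opposite strand over 212 exon bases, which strand-specific counting keeps apart. It had 5, 4 and 5 counts in WT libraries, 11, 3 and 8 in DGCR8 KO libraries, 2 and 3 for clone 1, and 6 and 5 for clone 2. The groups overlapped and the gene was not tested. Nlrc5, the class I coactivator (chromosome 8, 94434391 to 94527272), had 1 count in 1 WT library, none in the DGCR8 KO libraries, 4 counts in clone 1 replicate 1 and none in the other DDX6 KO libraries. A change of Nlrc5 was not detectable at this depth, since all but 1 library lay at or below the floor. None of these 3 untested members passed in any contrast when the limit on low counts was lifted.

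**Figure D2:**
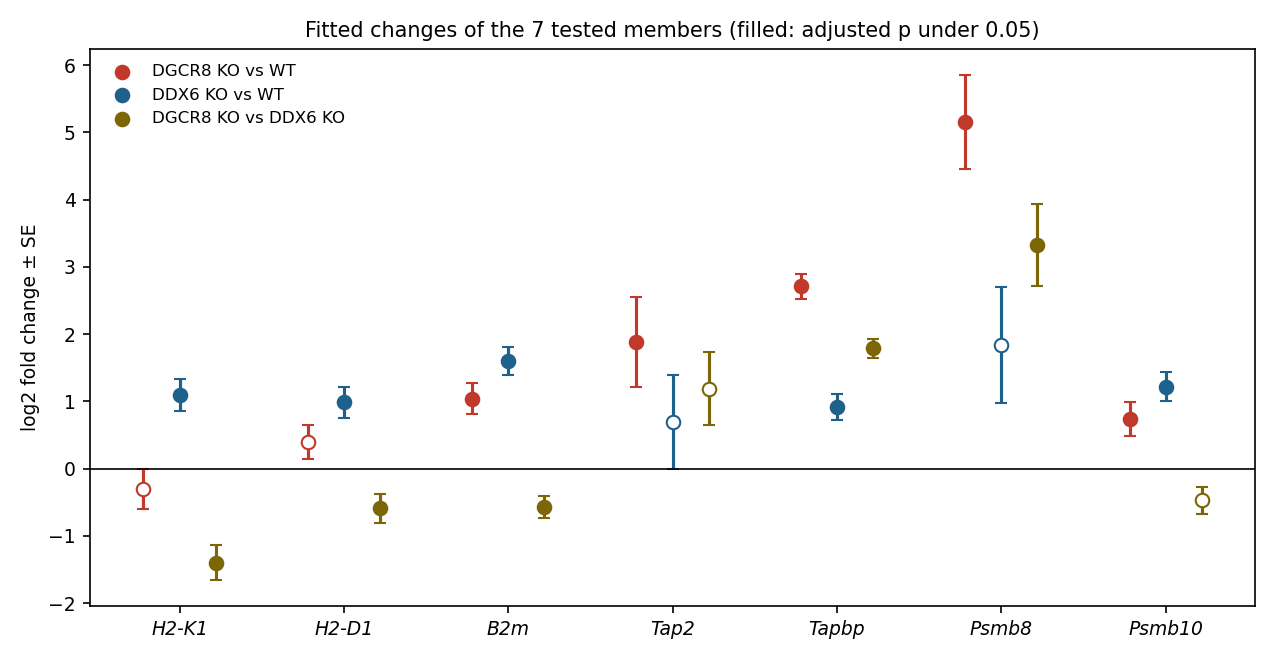
Fitted log2 fold changes (vertical axis, with SE) of the 7 tested members in DGCR8 KO against WT, DDX6 KO against WT and DGCR8 KO against DDX6 KO cells; filled points passed at an adjusted p under 0.05 and open points did not. In the direct contrast H2-K1, H2-D1 and B2m lie below 0 and Tapbp and Psmb8 above it.

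The direct contrast tests whether the knockouts differ. Of the 7 tested members 5 passed, 2 higher and 3 lower in DGCR8 KO than in DDX6 KO cells, against 44.0% of all genes, 23% higher and 21.0% lower. A log2 difference beyond 1 was reached by 3 of them (17.1% of all genes). Tapbp was 3.47-fold higher in DGCR8 KO cells (log2 difference 1.79, SE 0.14, limma adjusted p = 3.12e-08), with no overlap. Psmb8 was higher as well, its 10 to 21 counts standing above the 0 to 4 of DDX6 KO libraries (limma adjusted p = 0.00025). It was tested only because of its DGCR8 KO counts. Its place among the 2 higher and the 3 beyond 1 was therefore favoured by the filter on low counts. The mRNAs of the class I molecule went the other way. H2-K1 was 2.63-fold lower in DGCR8 KO cells (log2 difference -1.40, SE 0.26, limma adjusted p = 0.000325), with no overlap, B2m was 1.48-fold lower (-0.57, SE 0.17, limma adjusted p = 0.0138), and H2-D1 was 1.5-fold lower (-0.59, SE 0.22, limma adjusted p = 0.0349), with 1 DGCR8 KO library inside the DDX6 KO range. The H2-D1 call was lost with either clone alone and without clone 1 replicate 1 or DGCR8 KO replicate 2, and that of B2m with clone 2 alone and without DGCR8 KO replicate 3. Psmb10 differed by -0.47 (SE 0.20, limma adjusted p = 0.0563), and by -0.04 when set against the chromosome 8 median of this contrast, -0.43. That contrast passed under 6 of 22 alternatives, among them scaling to total counts (-0.60, limma adjusted p = 0.0184), with adjusted p over all 22 from 0.0184 to 0.262. Another was a term for the replicate number (-0.50, limma adjusted p = 0.0496). Tap2 differed by 1.19 (SE 0.54, limma adjusted p = 0.0842) and passed under 3 of 17 alternatives. With the replicate term it stood at 1.71 (limma adjusted p = 0.00725).

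The 2 DDX6 KO clones were compared in a fit with a group for each. None of the 7 tested members passed in limma, none had an unadjusted p under 0.05, and edgeR and DESeq2 also called 0; among all genes 5 passed (0.0428%) and 284 had an unadjusted p under 0.05. Differences of clone 2 from clone 1 ran from -0.28 for B2m (SE 0.20) to 1.79 for Psmb8 (SE 0.97). Against WT, B2m was higher by 1.75 (SE 0.23) in clone 1 and 1.47 (SE 0.23) in clone 2 on the log2 scale, and H2-K1 by 1.23 (SE 0.27) and 0.98 (SE 0.27). Ddx6 mRNA itself was at 26.4% of the WT mean in clone 1 and 6.02% in clone 2.

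Across the 10 libraries the tested members fell into 2 loose groups of likeness, given as a description since the libraries share their genotypes. B2m and Psmb10 correlated at a Pearson r of 0.849 on log2 CPM and B2m and H2-D1 at 0.780, while Tapbp and Psmb8 correlated at 0.931 and Tap2 and Psmb8 at 0.755. H2-K1 and Tapbp stood at -0.401. Among all genes tested, those most like B2m were Ppfibp1 (r = 0.983), Adcy6 (0.983) and Mon2 (0.980). Those most like H2-K1 were Fam102b (0.973), Eno2 (0.961) and Rundc3a (0.960), and those most like H2-D1 were Rbm6 (0.949), Prpf40b (0.936) and Csnk1g3 (0.928).

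The 7 members on chromosome 17 lie within the major histocompatibility complex, where Tapbp and H2-D1 mark the ends of a stretch of 1348 kb with 145 genes in the table. Of its 45 tested genes that are no members, 6 were higher and 10 lower in DGCR8 KO cells, with a median log2 fold change of -0.12, and 5 were higher and 12 lower in DDX6 KO cells, with a median of -0.18. Over all genes tested, 19.9% were higher and 16.5% lower in DGCR8 KO cells, and 17.9% and 16.6% in DDX6 KO cells. Class II genes, among them H2-Eb1 and H2-DMb1, lie in the same stretch. H2-Eb1, a class II beta chain, fell from 21.4 ± 4.19 CPM in WT (SD, n = 3) to 3.95 ± 2.25 in DGCR8 KO (SD, n = 3) and 0.960 ± 0.772 in DDX6 KO cells (SD, n = 4), log2 fold changes of -2.62 (limma adjusted p = 0.000182) and -4.65 (limma adjusted p = 3.08e-05). H2-DMb1, a chain of the class II peptide editor, rose in DGCR8 KO cells (1.17, limma adjusted p = 0.0329) and fell in DDX6 KO cells (-2.34, limma adjusted p = 0.012). Of the 8 genes on the class II list, which includes Cd74 from another chromosome, only these 2 could be tested.

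**Figure D3:**
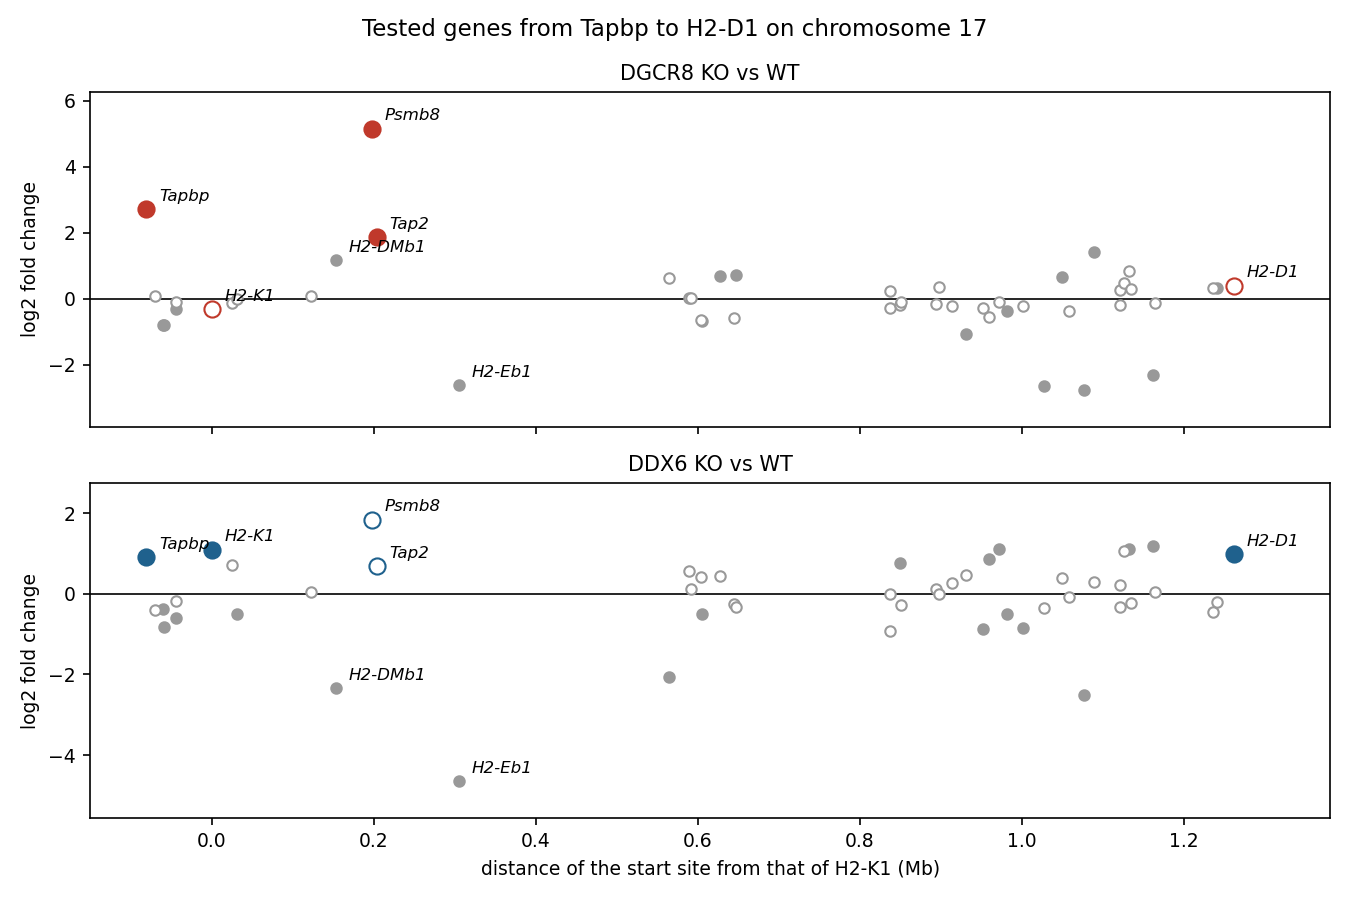
Log2 fold changes (vertical axis) of the 50 tested genes from Tapbp to H2-D1 in DGCR8 KO (upper panel) and DDX6 KO cells (lower panel) against WT, by the distance of their start site from that of H2-K1 in Mb; coloured points are members, grey points other genes, and filled points passed. Psmb8 and Tapbp are the highest points of the upper panel, and H2-Eb1 is the lowest of the lower panel.

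The genes around the members were read from 8 related lists. Their counts are to be set beside the shares over all genes tested. These were 19.9% higher and 16.5% lower in DGCR8 KO cells, and 17.9% higher and 16.6% lower in DDX6 KO cells. Of 28 other class I molecules, 6 could be tested; 3 were higher in the DGCR8 KO and 2 in the DDX6 KO cells, none was lower, and the medians were 1.5 and 0.62. H2-T3, a nonclassical class I gene, rose from 3.43 ± 1.08 CPM in WT (SD, n = 3) to 22 ± 0.386 in DGCR8 KO cells (SD, n = 3; log2 fold change 2.79, SE 0.33, limma adjusted p = 3.44e-06). Cd1d1, which presents lipids, rose in DDX6 KO cells (0.96, SE 0.28, limma adjusted p = 0.014). The remaining calls, named after their values were seen, were H2-Bl in DGCR8 KO cells (2.14, limma adjusted p = 0.00443) and H2-M3 in both knockouts (2.66 and 2.81, limma adjusted p = 0.0285 and 0.0177), both under 3 CPM in all WT libraries. Of 15 genes of peptide loading and trimming, 6 were higher and none lower in DGCR8 KO cells, and 3 were higher and 5 lower in DDX6 KO cells, with medians of 0.23 and -0.25. Erap1, which trims peptides in the endoplasmic reticulum, rose from 3.23 ± 0.710 CPM (SD, n = 3) to 23.7 ± 4.97 in DGCR8 KO cells (SD, n = 3; 2.91, SE 0.34, limma adjusted p = 3.44e-06) and was at 2.44 ± 0.697 in DDX6 KO cells (SD, n = 4). Tapbpl, a tapasin relative, rose in DDX6 KO cells (1.54, SE 0.45, limma adjusted p = 0.0138), and the glycoprotein folding genes Uggt1 (-0.74) and Canx (-0.47) fell there.

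Genes of the standard proteasome were lower in DDX6 KO cells. Of 14 constitutive core genes 9 were lower there and none higher, where 16.6% of all genes tested were lower, and the median was -0.40. In DGCR8 KO cells 2 were lower and none higher, a share near the 16.5% of all genes, with a median of -0.20. In DDX6 KO cells Psma6 fell by 0.63 (SE 0.12, limma adjusted p = 0.000868), and Psmb5, whose place Psmb8 takes, fell by 0.47 (SE 0.18, limma adjusted p = 0.0485). Of 10 activator and assembly genes, 2 were higher and 4 lower in DGCR8 KO cells, and none higher and 4 lower in DDX6 KO cells. The 2 that rose were the interferon-inducible PA28 activator subunits: Psme1 went from 21.4 ± 7.33 to 69.8 ± 0.558 CPM (SD, n = 3 each; 1.68, SE 0.20, limma adjusted p = 3.54e-06) and Psme2 from 4.37 ± 0.836 to 19.7 ± 3.28 (SD, n = 3 each; 2.13, SE 0.32, limma adjusted p = 4.95e-05). In DDX6 KO cells they stood at 0.49 and 0.81 (limma adjusted p = 0.0736 and 0.0733).

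Of 18 tested transcriptional regulators, 5 were higher and 3 lower in DGCR8 KO cells, and 5 higher and 4 lower in DDX6 KO cells, with medians of 0.19 and 0.11. Among all genes tested, 19.9% were higher and 16.5% lower in DGCR8 KO cells, and 17.9% and 16.6% in DDX6 KO cells. Irf2, an interferon regulatory factor, went from 1.24 ± 0.745 CPM in WT (SD, n = 3) to 17.7 ± 6.04 in DGCR8 KO (SD, n = 3) and 8.17 ± 2.60 in DDX6 KO cells (SD, n = 4), log2 fold changes of 4.04 (limma adjusted p = 5.08e-05) and 2.87 (limma adjusted p = 0.00168). Irf2 had 2 to 4 counts in WT libraries, all under 3 CPM, so it passed the filter on low counts through the knockouts and the size of its change is loosely set. It lies on the shifted chromosome 8. Irf1 and Irf9 rose in DGCR8 KO cells (1.82 and 2.08, limma adjusted p = 2.54e-05 and 1.70e-06) and stood at 0.03 and 0.14 in DDX6 KO cells, and the direct contrasts, 1.79 and 1.94, passed. Subunits of the promoter complex moved both ways. Rfx5, of the RFX complex and named after its values were seen, rose in both knockouts (1.23 and 0.60, limma adjusted p = 2.98e-05 and 0.0131), as did Creb1, named likewise, in DGCR8 KO cells (0.76, limma adjusted p = 6.25e-05). Rfxap, another RFX subunit, fell in DGCR8 KO cells (-0.93, limma adjusted p = 0.0388), and Nfyc, a subunit of NF-Y, in DDX6 KO cells (-0.76, limma adjusted p = 0.0298). Nfyb, another NF-Y subunit, fell in both knockouts (-0.73 and -0.67, limma adjusted p = 3.84e-05 and 6.40e-05). The remaining calls of this list are also named after their values were seen. Nfkb1, Rela and Ezh2 rose in DDX6 KO cells (0.66, 0.50 and 0.42, limma adjusted p = 0.0183, 0.0192 and 0.00512). Suz12 fell there (-0.29, limma adjusted p = 0.0252), and Eed fell in both knockouts (-0.50 and -0.27, limma adjusted p = 0.00149 and 0.0481).

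Of 8 interferon receptor and kinase genes, 5 were higher in the DGCR8 KO and 2 in the DDX6 KO cells and none was lower. The shares over all genes tested were 19.9% higher and 16.5% lower in DGCR8 KO cells, and 17.9% and 16.6% in DDX6 KO cells. Ifngr2, a chain of the interferon gamma receptor, rose in DGCR8 KO cells (1.97, limma adjusted p = 0.000272) and stood at -0.34 in DDX6 KO cells, and Jak2, its kinase, rose in both (1.59 and 0.87, limma adjusted p = 2.01e-05 and 0.00524). Of 20 interferon-stimulated genes outside the pathway 10 could be tested; 9 were higher and 1 lower in DGCR8 KO cells, and 2 were higher in DDX6 KO cells, with medians of 3.02 and 0.96. The lower one was Bst2, named after its values were seen, at -0.84 (limma adjusted p = 0.0138) on the shifted chromosome 8. Of the 10, 4 were under 3 CPM in all WT libraries, so they passed the filter on low counts through the knockouts. These 4 are among the 9 higher genes, a direction that the filter favoured. The counts and medians include them and are not those of the whole list of 20. Rsad2, which encodes viperin, had 0 counts in WT, 19 to 40 in DGCR8 KO and 1 to 3 in DDX6 KO libraries. Oasl1 had 0 to 4 counts in WT, 11 to 19 in DGCR8 KO and 16 to 29 in DDX6 KO libraries, and was higher in both (limma adjusted p = 0.000282 and 5.61e-05).

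**Figure D4:**
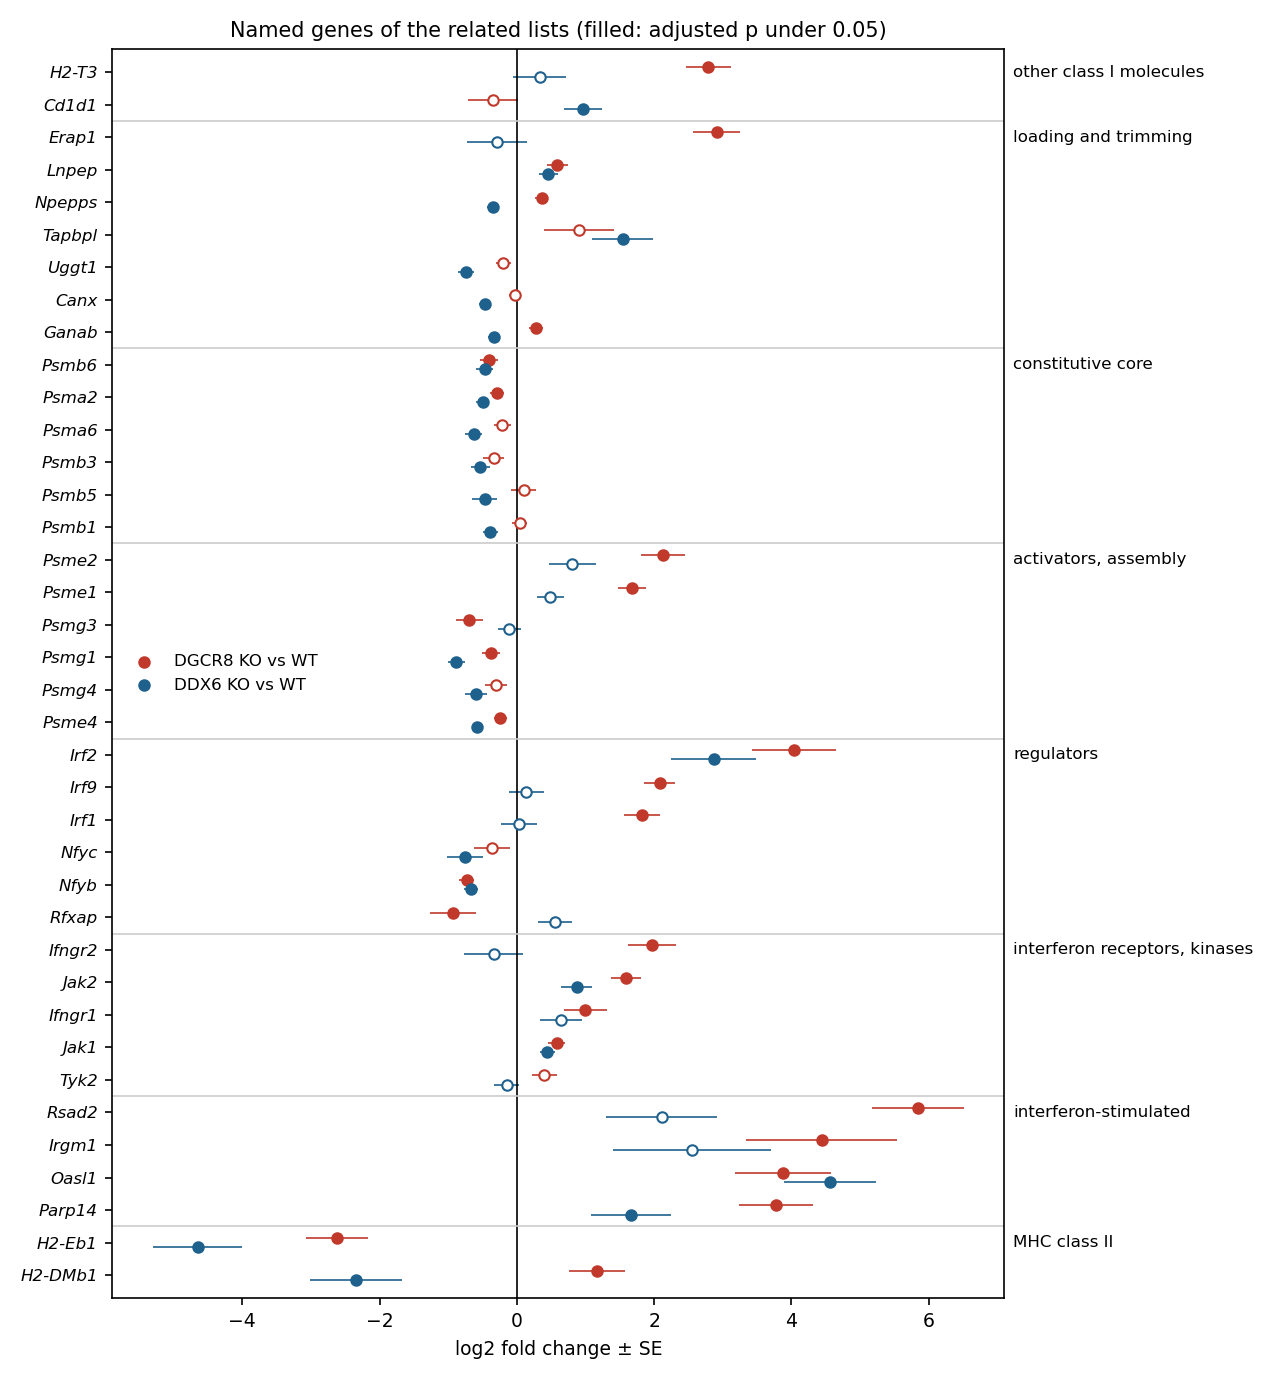
Log2 fold changes (horizontal axis, with SE) of the 38 genes named by rule from the 8 related lists, in DGCR8 KO (red) and DDX6 KO cells (blue) against WT; filled points passed. Erap1, Psme1, Psme2, Irf1, Irf9 and Ifngr2 are filled in red to the right of 0 with blue points open.

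Since DGCR8 KO cells lack miRNAs, the 3′ UTRs were searched for the seed of the ESC-specific family to which miR-294-3p belongs, shown here from RefSeq with bases 2 to 8 in capitals.
miR-294-3p: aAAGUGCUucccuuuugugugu
A 7-base match (AGCACTT or GCACTTA) occurred in 16.44% of 20746 coding mRNAs whose 3′ UTR is annotated, and the 6-base core GCACTT in 26.78%. None of the 10 members held either in its main transcript. Among 19 regulators with a 3′ UTR, 6 held the 7-base match (Rfx5, Nfya, Irf2, Irf9, Stat2 and Ciita). Over all 8 related lists, 13 tested genes held it, of which 8 were higher and 1, Psmg3, was lower in DGCR8 KO cells (-0.69, limma adjusted p = 0.00996). Of the 69 tested genes whose 3′ UTR lacked it, 23 were higher and 9 lower, Irf1 among the higher. In DDX6 KO cells 3 of the 13 were higher and none lower, and 11 of the 69 were higher and 24 lower. Among all genes tested, 19.9% were higher and 16.5% lower in DGCR8 KO cells, and 17.9% and 16.6% in DDX6 KO cells. The lists were chosen with earlier results known, and the part of the match in these counts was not tested. The 3 sites below, each the first core match of its 3′ UTR with 8 bases on either side and the core in capitals, were picked from genes that rose in DGCR8 KO cells; a match does not show that the site is used, and longer 3′ UTRs hold more matches.
Irf2: atcttgaaGCACTTacaatagg
Irf9: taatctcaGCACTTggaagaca
Erap1: tcataataGCACTTactgaaaa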

How the data were processed

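Libraries were grouped by their titles. According to the study's methods and the submitters' processing notes, the authors trimmed reads with cutadapt 1.14, aligned them to mm10 with STAR 2.5.3a, kept unique alignments and counted sense-strand exon reads with featureCounts 1.5.3 against a Gencode annotation without ribosomal RNA genes. The deposited values are raw counts per gene; no molecular identifiers are stated, so floors cover counting error only. Spike-ins were set apart. Of 51467 genes, 51274 were paired with a symbol by identifier.

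As in the study, a gene had to reach 3 CPM in 3 or more libraries. TMM factors came from edgeR 4.0.16, and the model was fitted with voom weights in limma 3.58.1 (R 4.3.3), all 10 libraries in 1 model with genotype as its term; a second model held the clones as separate groups. The study names limma without a transformation. The 4 DDX6 KO libraries counted as 4 replicates. Nothing states that libraries of a group came from separate cultures, so p-values measure the spread between libraries, which may be technical. The fits were tested on simulated data.

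The members and lists were chosen with earlier results of these data known. Named were all members, both targeted genes, and from each related list and contrast up to 3 genes with the largest change among those that passed and averaged 3 CPM or more, and for B2m, H2-K1 and H2-D1 the 3 most correlated genes. Motifs were chosen with the promoters in view. Alternatives were edgeR's quasi-likelihood test, DESeq2 1.42.0, limma-trend, other scalings and limits, a replicate block, libraries left out and clones alone. Same-numbered WT and DGCR8 KO libraries deviated together from their group means (r = 0.145, 0.267 and 0.285), so their numbers may pair them. The main fit left this pairing out, and its p-values do not account for it. The replicate block was run only as an alternative. Replicate libraries differed by more than sampling noise (chi-square per degree of freedom 3.372 to 7.873). A gene on the list of transcriptional regulators is not reported here and was left out of that list's counts.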

Additional observations from a re-analysis of the deposited data

Results flagged for a closer look

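Of the 10 members, 5 differed between the knockouts by the direct contrast in limma, as log2 differences of DGCR8 KO from DDX6 KO cells: H2-K1 by -1.40, H2-D1 by -0.59, B2m by -0.57, Tapbp by 1.79 and Psmb8 by 3.32. The last rests on 0 to 4 counts in the DDX6 KO libraries and depends on the prior count. Psmb8 was also tested only because of its DGCR8 KO counts. In the DDX6 KO group, the only one with 4 libraries, Nlrc5 had a single library with counts, so that the gap of this library to the others was the whole range (ratio 1.0). Chance marks about 1 in 20 such groups where values are not tied, and 10 were examined. With all other libraries tied at 0 the ratio is 1.0 whatever the count, so that rate does not hold here. The value rests on 4 counts.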

How the results depend on the processing

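In DGCR8 KO against WT, 5 members passed, and 3 did when 10 CPM in 3 or more libraries were demanded, since Psmb8 and Tap2 were then not tested; without a limit on low counts 4 did, Psmb10 being lost. Leaving out 1 library at a time gave 3 to 5 members in this contrast, 5 to 6 in DDX6 KO against WT and 3 to 5 in DGCR8 KO against DDX6 KO; leaving out a DGCR8 KO library took Psmb8 below the limit for testing. H2-K1, H2-D1, B2m, Tapbp and Psmb10 passed in DDX6 KO against WT under all 22 alternatives, and B2m and Tapbp in DGCR8 KO against WT under all 20. Of 419 refitted member values, 13 lost the call, 12 gained it and 0 changed direction. Refits in which a member came under the limit for testing gave no value and are not among the 419. The calls of Psmb8 and Tap2 that were lost in that way are therefore not among the 13. With the replicate block, 5 members passed in each knockout against WT, and the block changed no call there. In the direct contrast 7 passed with the block, Psmb10 and Tap2 being added. Whether the numbers also pair the DDX6 KO libraries with the others was less clear. For clones 1 and 2, replicate 1 libraries had r of 0.162 and 0.154 with WT replicate 1, and 0.171 and 0.141 with DGCR8 KO replicate 1. The replicate 2 libraries had 0.072 and 0.011 with WT replicate 2, and 0.002 and -0.05 with DGCR8 KO replicate 2. Same-numbered libraries of the 2 clones correlated at 0.199. For Psmb8, Tap2, Tap1, Psmb9 and Nlrc5 the depth, a few counts per library, is the limit.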
